A study of Mus musculus with 48 samples.

Results

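Insulin-producing cells of the fetal mouse pancreas were compared at 2 stages: 4 arrays titled E15.5 (embryonic day) and 3 titled E17.5, the 2 groups being called E15 and E17 here, were taken by their titles from the 48 arrays of the series. The series profiled sorted pancreatic populations from multipotent progenitors to adult islet and duct cells on Affymetrix arrays of the whole mouse genome, in order to follow expression along each lineage. All 7 arrays were labelled as pancreas of wild type mice on a CD-1 background. By the study's methods the cells were sorted by green fluorescent protein (GFP) from MIP-GFP fetuses, in which the mouse insulin promoter drives GFP, and each stage drew on pancreata pooled from many fetuses, so a cell entered the sample because its insulin promoter was or had been active. Leukocytes and erythroid cells were gated out by CD45 and Ter119. The replicates were separate samples by their labels, and nothing stated that they came from separate pools of litters. The p-values therefore measured only a spread between arrays. That spread was pooled within the 13 populations of all 48 arrays, so a standard error (SE) need not follow the standard deviation (SD) of the 7 arrays. Isl1 had SDs of 0.01 in E15 and 0.20 in E17 but an SE of 0.43. Upk3b had an SD of 1.20 in E17 but an SE of 0.37.

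Beta cells arise from epithelial progenitors that switch on Neurog3, leave the cell cycle and begin to make hormone. In the late fetal window many of these cells are still recent descendants of Neurog3-positive progenitors, most of the islet mass is yet to be made by division, and glucose-responsive secretion is acquired only after birth. The same days see the pancreas gain vessels, smooth muscle, a mesothelial coat and macrophages, all of which lie next to the forming islets.

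Every level is given as a log2 value after robust multi-array averaging (RMA), so a difference of 1 is a 2-fold change, and each gene was read from a single probe set. The 7 arrays had similar distributions, with medians from 6.77 to 6.85 and between 51.4% and 52.2% of probe sets above 100 on the linear scale. Arrays correlated at r of 0.979 to 0.989 within E15, 0.956 to 0.977 within E17 and 0.902 to 0.958 between the stages, over the 32078 probe sets tested. E17 replicate 1 stood apart from the other two E17 arrays, with a mean level of the acinar markers of 7.02 against 9.86 and 9.67, and of the islet transcription factors of 10.92 against 11.29 and 11.28. E15 replicate 1 stood apart in its macrophage and leukocyte markers, at 8.71 against 6.92, 7.82 and 6.98 in the other E15 arrays. Values without E17 replicate 1 are given beside the results that rest on it, and the counts without either array follow the totals.

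The label was checked against Ins2, the main insulin gene in mice, and Pdx1, the homeobox factor that binds the insulin promoter. Ins2 was at 14.11, 14.33, 14.37 and 14.49 in the E15 arrays and at 14.31, 14.33 and 14.28 in the E17 arrays. These levels overlapped, lay close to the brightest probe set of each array (14.80 to 14.98) and far above Ins2 in the E15 acinar cells (7.22), and the difference between the stages was -0.02 ± 0.40 (SE; adjusted p = 0.98). Pdx1 was at 12.54, 12.55, 12.59 and 12.62 in E15 and at 11.79, 12.11 and 12.16 in E17, against 11.08 in the E15 progenitors and 10.60 in P1 alpha cells (arrays titled P0 are called P1, as in the methods, and came from pancreata dissociated with other enzymes). Its E17 arrays were all below its E15 arrays, by 0.56 ± 0.20 (SE), which had an adjusted p of 0.04 (0.21 without E17 replicate 1) and did not reach 2-fold. Gcg, the glucagon gene of alpha cells, was also high, with means of 14.08 and 13.93 in E15 and E17 beta cells and 14.28 in P1 alpha cells, and Ins2 averaged 14.46 in those alpha cells. Both hormone genes lay near the top of the scale, where a probe set can be saturated, so their levels could not be used to tell the sorted beta cells from alpha cells. The levels of Pdx1 and Nkx6-1 (12.81 and 12.37 in the beta cells against 9.70 in P1 alpha cells) were higher in the beta cells. The mean of 9 alpha cell markers did not separate them as clearly. It was 11.29 in E15 and 10.90 in E17 beta cells, near the 11.48 of P1 alpha cells and above the 8.31 of adult beta cells.

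A probe set was called different at an adjusted p under 0.05 (limma, Benjamini-Hochberg over all probe sets tested) together with at least a 2-fold difference. Of 32078 probe sets tested, 3143 (9.80%) were called, 2340 (7.29%) higher and 803 (2.50%) lower in E17. Of 14484 genes, each read from its brightest probe set, 1347 (9.30%) were called higher and 253 (1.75%) lower, 1600 in all. Every count of called list members below stands against these shares. The excess of higher genes grew with size, since 452 genes were higher and 20 lower by at least 4-fold, and 123 were higher and 5 lower by at least 8-fold, while the median difference over all genes was -0.05. The E15 and E17 arrays did not overlap for 37.8% of all genes. Without E17 replicate 1 the called genes were 1109 (7.66%) higher and 160 (1.10%) lower, and without E15 replicate 1 they were 1445 (9.98%) higher and 262 (1.81%) lower.

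**Figure D1:**
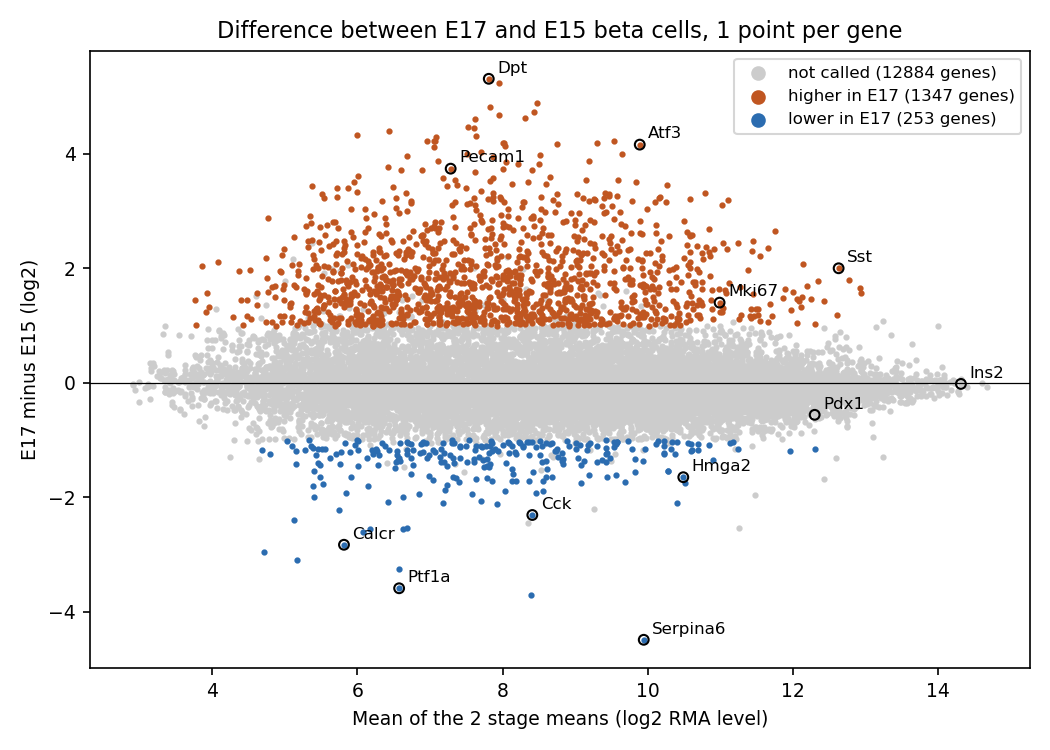
Each point is 1 of 14484 genes, placed by the mean of its E15 and E17 group means (x axis, log2 RMA level) and by E17 minus E15 (y axis, log2), with called genes coloured. The 1347 higher genes spread up to 5.31 (Dpt), whereas the 253 lower genes lie mostly between -1 and -3, and Ins2 lies at the right edge near 0.

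Most hormone genes did not pass the test, with 1 of 10 measured genes higher, 1 lower and a median difference of -0.08. Sst encodes somatostatin, the hormone of delta cells. It was at 12.18, 11.26, 11.57 and 11.51 in the E15 arrays and at 13.48, 13.64 and 13.76 in the E17 arrays. The stages did not overlap, and Sst rose by 2.00 ± 0.23 (SE; adjusted p = 1.6e-08), to a level close to that of P1 beta cells (13.35). Cck, which encodes the gut hormone cholecystokinin, moved the other way, from 9.82, 9.97, 8.94 and 9.53 in E15 to 7.20, 7.47 and 7.09 in E17. Cck fell by 2.31 ± 0.71 (SE; adjusted p = 0.016), with an adjusted p of 0.058 without E17 replicate 1 and 0.05 without E17 replicate 3, and its level continued from 11.38 in E15 endocrine progenitors to 5.66 in P1 and 4.62 in adult beta cells. Gast, the gene of gastrin, a relative of Cck that islets make before birth, averaged 12.71 ± 0.28 (SD, n = 4) in E15 and 11.87 ± 0.49 (SD, n = 3) in E17, a difference of -0.84 that did not reach 2-fold except when E17 replicate 2 was left out (-1.10). Iapp, the amyloid peptide released with insulin, differed by 0.06, Gcg by -0.15, the pancreatic polypeptide gene Ppy by 0.28 and the ghrelin gene Ghrl by 0.41, none past the test.

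The 21 measured transcription factors that hold islet identity, of 27 listed, were all detected in both stages. None was called in either direction by its brightest probe set. Their differences nevertheless leaned one way, with 20 of 21 below 0, a median of -0.48 against -0.05 over all genes, and 13 that did not overlap between the stages (37.8% of all genes did not, and 7858 of 14484 were below 0). Neurod1, a helix-loop-helix factor downstream of Neurog3, averaged 12.80 ± 0.08 (SD, n = 4) in E15 and 12.27 ± 0.16 (SD, n = 3) in E17, a difference of -0.53. Isl1, a LIM homeobox factor of all islet cells, differed by -0.50, Nkx2-2 by -0.68, Nkx6-1 by -0.43 and Pax6 by -0.29. Foxa2, Hnf4a and Rfx3 had adjusted p of 0.0092, 4.6e-05 and 0.0067 with differences of -0.52, -0.80 and -0.86, short of 2-fold. Without E17 replicate 1 these became -0.26 (adjusted p = 0.25), -0.63 (0.0035) and -0.71 (0.071). A probe set other than the brightest was called lower for Hnf4a (1 of 3 probe sets), Prox1 (1 of 3) and Prdm16 (1 of 4). The mean level of the list was 11.65, 11.63, 11.61 and 11.59 in the E15 arrays and 10.92, 11.29 and 11.28 in the E17 arrays, so the E17 arrays lay lower by amounts that differed between replicates, and the median without E17 replicate 1 was -0.36. Markers of non-endocrine cells were higher in the same E17 arrays (below), and their part in this shift was not tested.

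Single genes of earlier steps in the lineage fell, while the medians of their lists were near 0. Neurog3, the master factor of endocrine progenitors, averaged 11.16 ± 0.37 (SD, n = 4) in E15 and 10.24 ± 0.29 (SD, n = 3) in E17, a difference of -0.92 with an adjusted p of 0.053, against 13.40 in the sorted E15 endocrine progenitors. Pax4, a homeobox factor that favours the beta over the alpha fate, was at 10.44, 9.95, 9.46 and 10.34 in E15 and at 8.75, 8.91 and 8.82 in E17. It fell by 1.22 ± 0.22 (SE; adjusted p = 5e-05) and continued to 6.75 in P1 beta cells. Pou3f4, a POU factor of early alpha cells, fell by 1.39 (adjusted p = 1.2e-04) and Cer1, a secreted antagonist of Nodal and BMP signalling, by 1.44 (adjusted p = 1.9e-04, 1 of its 2 probe sets called). Both were higher still in the E15 endocrine progenitors, at 11.30 and 9.90. Of 21 endocrine progenitor genes, 2 were lower (Pax4, Cer1) and 2 higher, with a median of -0.03, against 1.75% lower and 9.30% higher of all genes. The higher genes were Acot7 (a long-chain acyl-CoA thioesterase, by 1.58) and Gadd45g (a growth arrest gene, by 1.08, or 0.99 and short of 2-fold without E15 replicate 1).

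Among 19 genes of pancreatic progenitors 3 were lower and 2 higher, with a median of 0.23 (1.75% and 9.30% of all genes). Ptf1a, a helix-loop-helix factor of early progenitors that later drives the acinar fate, was at 8.47, 8.50, 8.46 and 8.06 in E15 and at 4.51, 5.13 and 4.71 in E17. The stages lay far apart, and Ptf1a fell by 3.59 ± 0.49 (SE; adjusted p = 7.1e-07). No E17 array passed 100 on the linear scale, so the size of this fall is limited by the low end of the scale. Rbpjl, which replaces Rbpj in the acinar form of the Ptf1a complex, fell by 1.70 (adjusted p = 0.011, 1 of its 2 probe sets called). Ptf1a, Rbpjl and Gata4 were at 12.68, 12.11 and 11.62 in the E15 acinar cells, above all 7 beta cell arrays. Gata4, a zinc finger factor of the pancreatic epithelium, was at 7.92, 8.31, 8.33 and 7.95 in E15 and at 6.06, 6.32 and 6.66 in E17, and fell by 1.78 ± 0.30 (SE; adjusted p = 2.7e-05), a call made by 1 of its 2 probe sets. Onecut2 was also lower, by 1.18 (adjusted p = 0.039), a call lost when any 1 of 5 arrays was left out (adjusted p of 0.21 without E17 replicate 1). Id3, an inhibitor of helix-loop-helix factors, was higher 2.83-fold, and Yap1, the transcriptional arm of Hippo signalling, 2.65-fold.

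**Figure D2:**
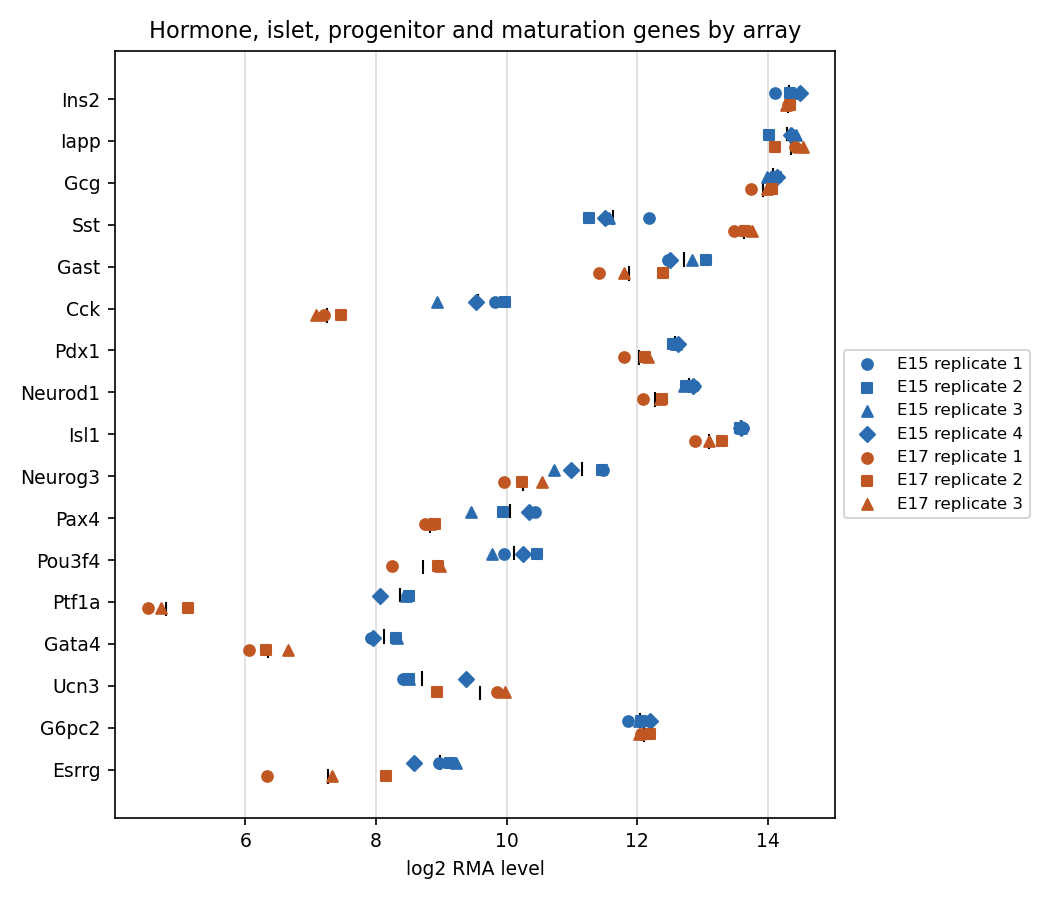
Each symbol is 1 array (x axis, log2 RMA level) for 17 genes, blue for E15 and orange for E17, with a black tick at each group mean. Ins2, Iapp, Gcg and G6pc2 overlap between the stages, Sst is higher in every E17 array, and Cck, Pax4, Pou3f4, Ptf1a, Gata4 and Esrrg are lower in every E17 array.

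Genes of glucose sensing and of the mature beta cell showed no common direction, with 2 of 20 higher, 1 lower and a median of -0.01. The share higher was near the 9.30% of all genes. Ucn3, a peptide that marks mature beta cells, was at 8.42, 8.50, 8.50 and 9.38 in E15 and at 9.85, 8.94 and 9.98 in E17. Its stages overlapped through 1 array each, its difference was 0.89 ± 0.34 (SE; adjusted p = 0.057), and it passed the test only without E15 replicate 4 (1.12), without E17 replicate 2 (1.21) or with the replicate numbers as a block (1.12). Slc2a2, the glucose transporter GLUT2, differed by 0.43, the islet glucose-6-phosphatase G6pc2 by 0.06, the sulphonylurea receptor Abcc8 by -0.10 and the incretin receptor Glp1r by 0.09, none past the test. Esrrg, a nuclear receptor tied to oxidative metabolism in mature beta cells, was at 8.97, 9.14, 9.23 and 8.58 in E15 and at 6.33, 8.16 and 7.33 in E17. It fell by 1.71 ± 0.39 (SE; adjusted p = 0.0013). Cox6a2, a cytochrome oxidase subunit of muscle and islet, was higher by 1.45 on the strength of E17 replicates 1 and 2 (10.28 and 9.32 against 7.44 in replicate 3), and had an adjusted p of 0.26 without replicate 1, 0.06 without replicate 2 and 0.12 in a fit of the 7 arrays only.

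Few genes of the secretory machinery passed the test. None of 17 granin and prohormone processing genes was called (median -0.16), including the prohormone convertase Pcsk1 (0.25), chromogranin Chga (0.08) and the zinc transporter Slc30a8 (0.62), and none of 17 ion channel genes was called (median -0.18). Of 19 vesicle docking and fusion genes, 1 was lower, the priming factor Cadps (-1.04, adjusted p = 0.0019), a call lost without E17 replicate 1 (-0.86) or E15 replicate 1 (-0.99). None of 22 oxidative phosphorylation genes (median -0.10) and none of 11 ribosomal protein genes (median 0.07) was called. Of 24 genes of protein folding in the endoplasmic reticulum, 1 was higher, Ddit3 (by 1.21, adjusted p = 3.2e-06), which encodes the stress factor CHOP. In the serotonin list 2 of 12 genes were higher, against 9.30% of all genes. Slc6a4, the serotonin transporter, was at 4.51, 4.18, 4.27 and 4.41 in E15 and at 7.18, 5.55 and 7.27 in E17, and rose by 2.32 ± 0.36 (SE; adjusted p = 5.8e-06). Tph1, the enzyme that starts serotonin synthesis, rose by 1.39 (adjusted p = 0.0028). Neither gene passed 100 on the linear scale in any E15 array, and each passed it in 2 E17 arrays. The sizes of both rises therefore depend on the low end of the scale. Slc6a4 was at 8.49 in E15 acinar cells and 5.60 in P1 beta cells, and Tph1 at 4.94 and 7.20. The part of other cells in the rises of Slc6a4 and Tph1 was not tested.

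Genes of cell division were higher in E17. Of 41 cell cycle genes, 18 were higher and none lower, the median was 0.96 against -0.05 over all genes, and 40 of 41 differences were above 0. Ccnd1, the G1 cyclin D1, averaged 9.77 ± 0.24 (SD, n = 4) in E15 and 11.53 ± 0.45 (SD, n = 3) in E17. The stages were well apart, all 3 of its probe sets were called, and it rose by 1.76 ± 0.19 (SE; adjusted p = 3e-09). Mki67, the proliferation marker Ki-67, was at 10.29, 10.35, 10.30 and 10.20 in E15 and at 11.80, 11.69 and 11.57 in E17, a rise of 1.40 ± 0.32 (SE; adjusted p = 0.0013). Mitotic genes (Ccnb2, by 1.64; Ube2c, by 1.43; Birc5, by 1.31; Cdk1, by 1.28) and replication genes (Mcm2, by 1.41; Cdc45, by 1.35; Pcna, by 1.03) were both among the 18, while Cdk4 (0.14), Ccne1 (0.28) and Ccne2 (-0.15) did not pass. The mean level of the list was 9.23, 8.94, 8.94 and 8.79 in the E15 arrays and 9.84, 9.95 and 9.84 in the E17 arrays, and 20 of its genes were called without E17 replicate 1. Of 12 cell cycle inhibitors, 3 were higher, against 9.30% of all genes: Cdkn1c (p57, by 1.62), Cdkn2c (p18, by 1.55) and Rbl1 (p107, by 1.25). Whether dividing cells were beta cells or the other cells described below was not tested, and in bulk samples fewer cells of a type and less RNA per cell cannot be told apart.

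Fetal growth genes moved both ways. Of 16 measured, 3 imprinted genes were higher, Cdkn1c, Mest (by 1.49) and Igf2, and 2 genes were lower (9.30% and 1.75% of all genes). Igf2, the fetal insulin-like growth factor, was at 11.97, 11.29, 11.82 and 11.79 in E15 and at 13.51, 12.85 and 13.08 in E17, and rose by 1.43 ± 0.21 (SE; adjusted p = 1.6e-06). Its level was 13.50 in P1 beta cells and 7.26 in P15 beta cells. Hmga2, a chromatin protein of embryonic cells, was at 11.33, 11.44, 11.34 and 11.17 in E15 and at 9.86, 9.63 and 9.50 in E17. All 3 of its probe sets were lower, it fell by 1.65 ± 0.22 (SE; adjusted p = 3.5e-07), and its level dropped again between P1 (9.40) and P15 (6.74). The 3 higher genes also varied with lists of non-epithelial markers in the other 41 arrays of the series. The highest r was 0.70 for Igf2 and 0.65 for Cdkn1c, both with glial markers, and 0.59 for Mest with mesenchyme markers, against 0.48 for Hmga2. In E15 progenitors and E15 acinar cells, Igf2 was at 11.96 and 12.50, Cdkn1c at 10.80 and 9.92 and Mest at 10.89 and 12.55. The part of the non-epithelial markers, which were higher in the same E17 arrays, was not tested. Igf2bp1, an RNA-binding protein that like Hmga2 is known as a fetal gene repressed by let-7, fell by 1.15 (adjusted p = 0.0036).

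A list of genes known to be repressed as beta cells mature was mostly higher in E17. Of 19, 13 were higher and none lower, with a median of 1.41 (9 higher without E17 replicate 1, median 1.21). Hk1, a hexokinase with high affinity for glucose, was at 5.43, 5.37, 5.21 and 5.53 in E15 and at 7.98, 7.20 and 7.80 in E17, and rose by 2.27 ± 0.32 (SE; adjusted p = 9.7e-07). Ldha, lactate dehydrogenase A, was higher by 1.45 and the pyruvate and lactate carrier Slc16a1 by 1.74 (adjusted p of 0.13 without E17 replicate 1). In the other 41 arrays 9 of the 19 genes had an r of at least 0.7 with a list of non-epithelial markers, among them Pdgfra (0.97, itself a mesenchyme marker), Arhgdib (0.93), Cxcl12 (0.88), Igfbp4 (0.83), Mgll (0.73) and Ndrg2 (0.72), and 3 had an r under 0.5. The value was 0.66 for Slc16a1, 0.62 for Ldha and 0.47 for Hk1. For Cxcl12, Igfbp4, Mgll and Ndrg2 the list was that of 6 glial and neural crest markers. Its mean was also 8.47 in E15 progenitors and 7.81 in E15 acinar cells, which are epithelial. Mgll and Ndrg2 were themselves at 10.87 and 9.32 in E15 progenitors and at 12.02 and 10.06 in E15 acinar cells. The part of other cells in these rises was not tested. Not all members were low in the adult arrays, where Arhgdib averaged 9.12 against 8.31 in E17.

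The largest fall in E17 was that of Serpina6. Serpina6, the corticosteroid-binding globulin, was at 12.44, 12.00, 12.30 and 12.01 in E15 and at 7.13, 7.98 and 7.99 in E17. The E15 arrays lay far above every E17 array, and Serpina6 fell by 4.49 ± 0.34 (SE; adjusted p = 1.8e-12), after a level of 11.81 in E15 endocrine progenitors and before 7.27 in P1 and 3.97 in P15 beta cells. Cckar, a receptor for the hormone that Cck encodes, was at 10.14, 10.10, 10.58 and 10.16 in E15 and at 4.30, 7.90 and 7.40 in E17. Cckar fell by 3.71 ± 0.86 (SE; adjusted p = 0.0015), or by 2.59 with an adjusted p of 0.053 without E17 replicate 1. Both genes were higher in other E15 epithelium than in the beta cells, Serpina6 at 14.10 in acinar cells and 13.41 in progenitors, and Cckar at 11.97 in progenitors and higher still in acinar cells. The mean of the acinar markers was lower in E17 replicate 1 and higher in E17 replicates 2 and 3 than in the E15 arrays, and its part in these falls was not tested.

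Afp, the fetal serum protein alpha-fetoprotein, was at 8.84, 8.59, 7.44 and 7.91 in E15 and at 5.36, 4.70 and 4.80 in E17, and fell by 3.25 ± 0.41 (SE; adjusted p = 1.2e-07). Calcr, the calcitonin receptor, was at 7.56, 7.61, 6.98 and 6.77 in E15 and at 3.75, 5.04 and 4.41 in E17, and fell by 2.83 ± 0.31 (SE; adjusted p = 7.8e-09). In both genes every E17 array was below every E15 array, and P1 beta cells were at similar levels, Afp at 4.91 and Calcr at 3.86. Acinar cells of E15 had Afp at 9.81 and Calcr at 3.39, so that Calcr, unlike Afp, was higher in the E15 beta cells than in acinar cells. The endopeptidase Phex fell by 2.55, the sulphate transporter Slc13a4 by 2.55, the clock factor Arntl2 by 2.54 and the sugar transporter Slc5a9 by 2.12, with adjusted p from 9.1e-13 to 2e-05. The embryonic globin genes Hbb-y and Hba-x were lower (adjusted p of 0.0028 and 0.0098), with Hbb-y ranging from 4.16 to 8.01 over the E15 arrays and between 3.83 and 3.98 in E17, and the call of Hba-x was lost without E15 replicate 2 (adjusted p = 0.069). Tmprss11a, Sval2, Tinag and Clrn3 completed the 15 largest falls, at -3.09, -2.96, -2.61 and -2.22. Of the 253 lower genes, 77 passed 100 on the linear scale in no E17 array, Afp, Calcr, Phex, Slc13a4 and Arntl2 among them, which limits how far their size can be read.

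**Figure D3:**
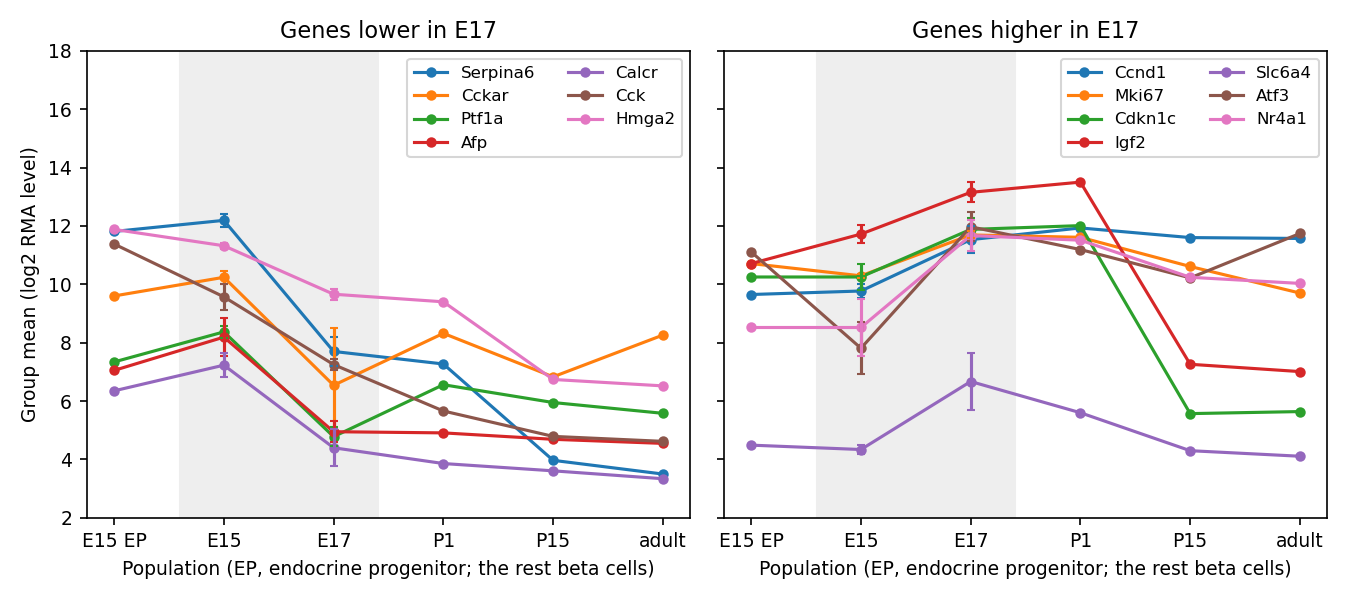
Group means (y axis, log2 RMA level) of 14 genes in E15 endocrine progenitors (EP) and in beta cells of 5 ages (x axis), with SD bars at E15 and E17, which are shaded. In the left panel Afp and Calcr are near their later level by E17 while Cck and Hmga2 continue down, and in the right panel Igf2 and Cdkn1c stay high to P1 and are low at P15.

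The largest rises were of another kind. Dpt, the matrix protein dermatopontin of fibroblasts, was at 5.78, 4.25, 5.42 and 5.17 in E15 and at 10.90, 10.54 and 9.95 in E17. It passed 100 on the linear scale in no E15 array and rose by 5.31 ± 0.49 (SE; adjusted p = 1.8e-10), a size that depends on the low end of the scale. Fabp4 and Gpihbp1, lipid handling genes of capillary endothelium and fat, rose by 5.24 and 4.81, Aoc3, an amine oxidase of smooth muscle and endothelium, by 4.88, and Mfap5, a microfibril protein, by 4.67. The mesothelial uroplakin Upk3b, the endothelial genes Emcn, Tie1, Sox17 and Myct1, the smooth muscle actin Actg2 and the neuropeptide Vip were also among the 15 largest rises, at 4.23 to 4.73, with Igfbp6 at 4.47 and Krtdap at 4.29. Of the 1347 higher genes, 487 passed that level in no E15 array.

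Markers of other cell types of the pancreas were therefore examined as whole lists. Endothelial markers were higher in 13 of 14 cases, with a median of 3.72. Pecam1, the junction protein CD31, was at 4.98, 5.52, 5.39 and 5.79 in E15 and at 9.52, 8.30 and 9.64 in E17, and rose by 3.74 ± 0.31 (SE; adjusted p = 2e-11). The mean of the endothelial list was 5.45 to 6.64 in the E15 arrays, where 8 of its 14 genes were at or under 100 in all 4, and 9.08 to 10.21 in the E17 arrays, where all 14 were above 100. Mesenchyme and stellate markers were higher in 12 of 15 cases (median 2.27, 11 without E17 replicate 1), with list means of 9.06 to 9.91 in the E15 arrays and up to 12.15 in the E17 arrays. The proteoglycan Dcn rose by 2.31, whereas the main collagen Col1a1 was already at 12.19 to 12.69 in E15 and differed by 0.58, not past the test.

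Pericyte and smooth muscle markers were higher in 11 of 12 cases (median 2.00, 10 without E17 replicate 1), led by the smooth muscle actin Acta2, which was at 8.43, 7.62, 7.68 and 8.57 in E15 and at 11.63, 11.37 and 11.77 in E17. Mesothelial markers were higher in 7 of 8 cases (median 2.87), including the factor Wt1, higher by 2.42. Their list mean varied among the E17 arrays, at 10.12, 8.11 and 9.34. Macrophage and leukocyte markers were higher in 9 of 17 cases (median 1.48), and in 6 without E17 replicate 1 and 14 without E15 replicate 1. Ptprc, which encodes CD45, the antigen used to gate blood cells out of sorts in this study, differed by 1.30 (adjusted p = 0.06) and stayed at or under 6.65 in the 7 arrays, and Cd68, a lysosomal protein of macrophages, was higher by 1.25.

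Glial and neural crest markers were higher in 2 of 6 cases, against 9.30% of all genes. The 2 were the endothelin receptor Ednrb and the factor Sox10, and both calls were lost without E17 replicate 1 (adjusted p of 0.13 and 0.18). Of 9 erythroid markers 2, the embryonic globins above, were lower and none higher. Acinar markers went in no single direction (1 higher and 1 lower of 17, median -0.52, and 2 higher, 1 lower and a median of 0.02 without E17 replicate 1), and E17 replicate 1 separated from the other two E17 arrays there. Cpa1, a digestive carboxypeptidase, was at 9.42, 11.26 and 10.83 in E17 against 12.30, 12.43, 12.74 and 12.37 in E15, and Zg16, a zymogen granule lectin, at 6.61, 10.86 and 11.14 against 6.18, 5.96, 7.40 and 6.91. The higher call of Zg16 was lost without E17 replicate 2 or 3 (adjusted p of 0.15 and 0.19) and without E15 replicate 1 or 2 (0.062 and 0.075). Duct markers were higher in 3 of 14 cases, against 9.30% of all genes. Of the 3, Aqp1 (3.83) and Anxa2 (2.36) are also made by endothelium and mesenchyme. The keratins Krt19 (0.90), Krt7 (0.14), Krt8 (-0.10) and Krt18 (0.16) did not pass. In alpha cell markers 1 of 9 was higher (Fap, also a fibroblast gene) and 1 lower (Pou3f4).

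**Figure D4:**
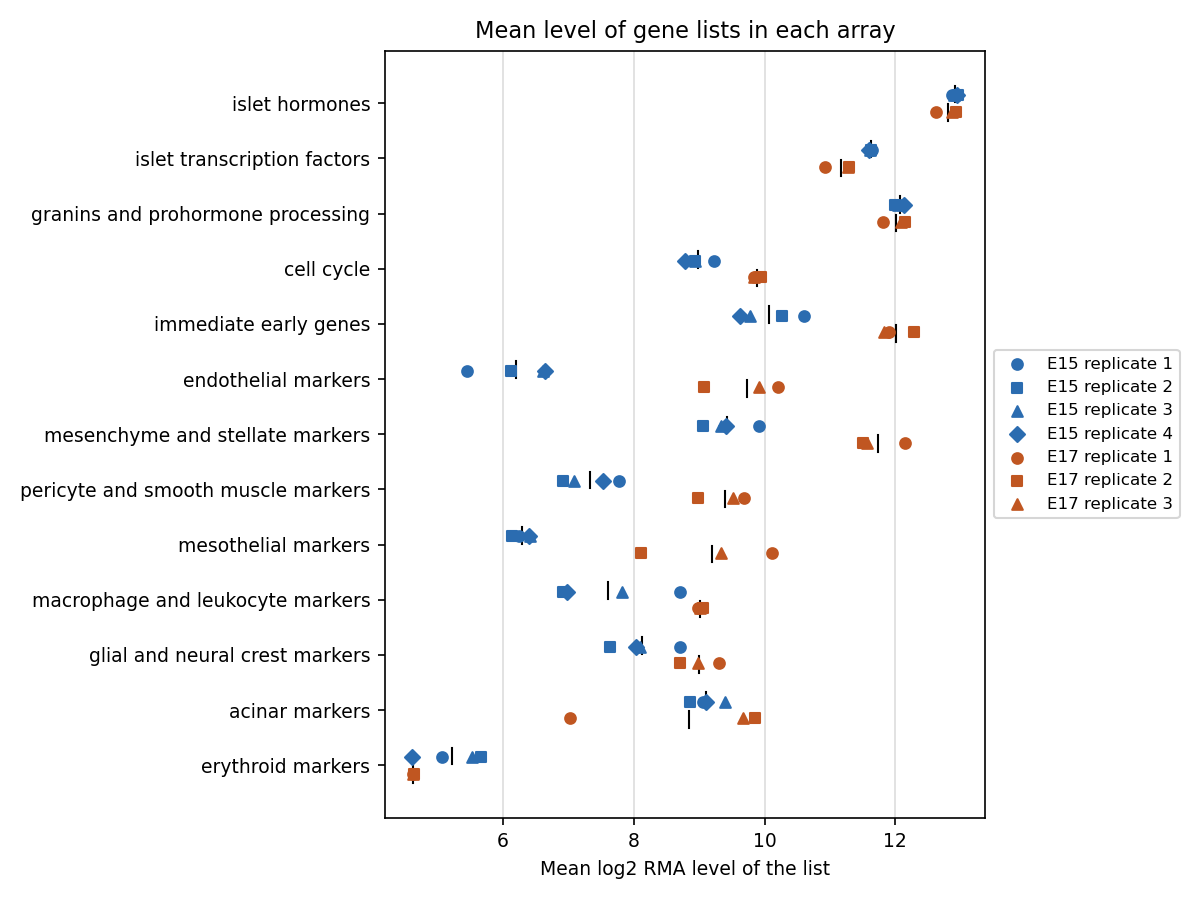
Mean log2 RMA level of 13 gene lists (x axis) in each array, blue for E15 and orange for E17, with a black tick at each group mean. The endothelial, mesenchyme, pericyte, mesothelial, cell cycle and immediate early lists are higher in every E17 array than in any E15 array, the islet transcription factors are lower in every E17 array, and E17 replicate 1 is lowest in the acinar markers.

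Each gene was also set against these lists in the other 41 arrays of the series, which hold 11 populations and no E15 or E17 beta cells. Its highest Pearson r with the mean of any of 7 non-epithelial lists (endothelial, mesenchyme, pericyte, mesothelial, macrophage, erythroid, glial) was taken. This r was at least 0.7 for 712 (52.9%) of the 1347 higher genes, for 1 (0.395%) of the 253 lower genes and for 1272 (8.78%) of all genes. It was under 0.5 for 260 (19.3%) of the higher genes, for 222 (87.7%) of the lower genes and for 10571 (73.0%) of all genes. These values are descriptions, since the arrays share populations and sorts, list members correlate with their own list, and P1 beta cells also carried such markers (Emcn at 10.94). The glial list gave the highest r for 125 of the 712 higher genes, and its mean was also 8.47 in E15 progenitors, which are epithelial. The largest rises among the higher genes with r under 0.5 are described next.

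The 15 largest rises with r under 0.5 were led by Atf3, a stress-induced factor of the bZIP family. Atf3 was at 8.87, 8.12, 7.49 and 6.76 in E15 and at 11.80, 12.53 and 11.57 in E17. No E15 array came near an E17 array, and Atf3 rose by 4.16 ± 0.64 (SE; adjusted p = 6e-06), a 17.8-fold difference. The zinc finger factors Egr3 and Egr2 rose by 3.48 and 2.75, the AP-1 subunit Fosb by 3.21, the orphan nuclear receptor Nr4a1 by 3.16, the small heat shock protein Hspb1 by 3.22, the cytokine signalling inhibitor Socs3 by 2.82 and the activity-induced factor Npas4 by 2.72. Egr2 was at 9.82, 9.36, 7.91 and 7.89 in E15 and at 11.29, 12.26 and 10.94 in E17, and its adjusted p of 0.03 became 0.074 to 0.11 when any of E15 replicates 3 and 4 or E17 replicates 1 and 2 was left out, and 0.087 with the replicate numbers as a block. Egr3 was called by 1 of its 2 probe sets. Of the arrays left out singly, E17 replicate 2 ended the call of Egr3 (adjusted p = 0.062) and of the bile acid transporter Slc10a1 (0.069), which was at 10.00 in that array and at 7.47 in the other two.

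Depp1, a gene induced by forkhead factors, rose by 3.24 ± 0.29 (SE; adjusted p = 8.4e-11), from 6.46 to 7.23 in E15 to 9.99 to 10.46 in E17. Fam107a rose by 2.64, the cytokine Il18 by 2.58, the complexin Cplx1 by 2.57 and Fam71a by 3.15. Car3, a carbonic anhydrase, was at 10.00 in E17 replicate 1 and at 5.41 and 5.15 in the other two, so its rise of 2.58 rested on that array (1.01 and adjusted p = 0.47 without it). Hspa1a, the inducible heat shock protein of the main list of rises, was at 6.82, 5.79, 6.15 and 5.24 in E15 and at 9.47, 11.31 and 11.08 in E17 (higher by 4.62 ± 0.82 SE, adjusted p = 4.9e-05), with an r of 0.55.

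Because several of these are immediate early genes, which cells switch on within minutes of a stimulus or of handling, the whole list was read. Of 16 members 12 were higher and none lower, all 16 had no overlap between the stages against 37.8% of all genes, and the median was 1.77 (11 higher without E17 replicate 1). The list mean was 10.60, 10.26, 9.77 and 9.62 in the E15 arrays, a spread of nearly 1 unit, and 11.90, 12.29 and 11.83 in the E17 arrays. Ier3 rose by 2.74, the factor Klf4 by 2.39, the RNA-destabilising protein Zfp36 4.32-fold, the phosphatase Dusp1 by 1.65 and the AP-1 subunits Junb and Jun by 1.69 and 1.33. Fos (0.67), Egr1 (0.83), Btg2 (0.58) and Jund (0.39) were not called, and Fos and Egr1 were already at 13.08 to 13.67 and 12.65 to 13.31 in E15. By the methods both fetal stages were dissociated with trypsin in the same way, and the time from dissection to lysis is not given in the sources used here, so that its part in this difference was not tested. The list mean was 11.83 in P1 beta cells. There Klf4 (12.00), Nr4a1 (11.51) and Ier3 (10.96) were within the range of the E17 arrays, while Atf3 (11.19), Egr2 (10.43) and Fosb (9.78) were below every E17 array. In the other E15 sorts the list mean was 11.76 in progenitors, 10.91 in endocrine progenitors, 10.61 in Neurog3-null cells and 8.79 in acinar cells. The list therefore also differed widely between populations sorted at the same stage.

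Since members of this list moved together, their promoters are shown for 4 genes, Atf3 as the largest rise and 3 others that hold matches to known elements. Sequences are from RefSeq on GRCm38.p6, each 250 bases that end just before the start of the gene, 5′ to 3′ on the strand of the gene. Capitals mark the core of the cAMP response element (TGACG on either strand) and the CArG box, which binds serum response factor. The windows are chr1:191183334-191183583 on the minus strand for Atf3, chr10:67537619-67537868 on the plus strand for Egr2 (of 5 listed starts, the one with most matches), chr15:101266596-101266845 on the plus strand for Nr4a1 and chr7:28379229-28379478 on the minus strand for Zfp36.
Atf3: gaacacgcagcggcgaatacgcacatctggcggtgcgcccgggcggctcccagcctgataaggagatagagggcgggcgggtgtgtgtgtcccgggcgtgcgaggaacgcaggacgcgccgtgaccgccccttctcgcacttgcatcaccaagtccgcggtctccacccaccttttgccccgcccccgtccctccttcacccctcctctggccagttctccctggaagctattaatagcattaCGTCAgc
Egr2: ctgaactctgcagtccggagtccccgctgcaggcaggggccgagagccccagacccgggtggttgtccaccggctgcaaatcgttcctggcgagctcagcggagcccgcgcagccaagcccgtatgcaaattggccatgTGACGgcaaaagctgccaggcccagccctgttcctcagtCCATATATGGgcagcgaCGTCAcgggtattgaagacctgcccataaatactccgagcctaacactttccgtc
Nr4a1: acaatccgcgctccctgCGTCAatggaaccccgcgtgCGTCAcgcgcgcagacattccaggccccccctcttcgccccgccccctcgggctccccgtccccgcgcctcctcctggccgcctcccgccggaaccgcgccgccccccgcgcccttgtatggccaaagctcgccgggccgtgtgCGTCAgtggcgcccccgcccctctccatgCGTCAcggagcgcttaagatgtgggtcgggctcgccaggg
Zfp36: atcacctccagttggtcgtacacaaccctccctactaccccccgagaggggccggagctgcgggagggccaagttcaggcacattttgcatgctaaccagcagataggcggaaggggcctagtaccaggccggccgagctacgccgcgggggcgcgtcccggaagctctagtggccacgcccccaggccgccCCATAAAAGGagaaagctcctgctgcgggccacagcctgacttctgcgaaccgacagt
The TGACG core was found in at least 1 listed promoter of 9 of the 14 immediate early genes in the RefSeq table, and in 5836 of 32851 promoters (17.8%), or 19.8% of all genes. It occurred 4 times in Nr4a1, 2 times in Egr2 and 1 time in Atf3. The CArG box was found in 2 of the 14, Egr2 (72 bases before the start) and Zfp36 (58 bases before the start), and in 482 promoters (1.47%), or 1.62% of all genes. A match is a description of letters and says nothing of binding in these cells.

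**Figure D5:**
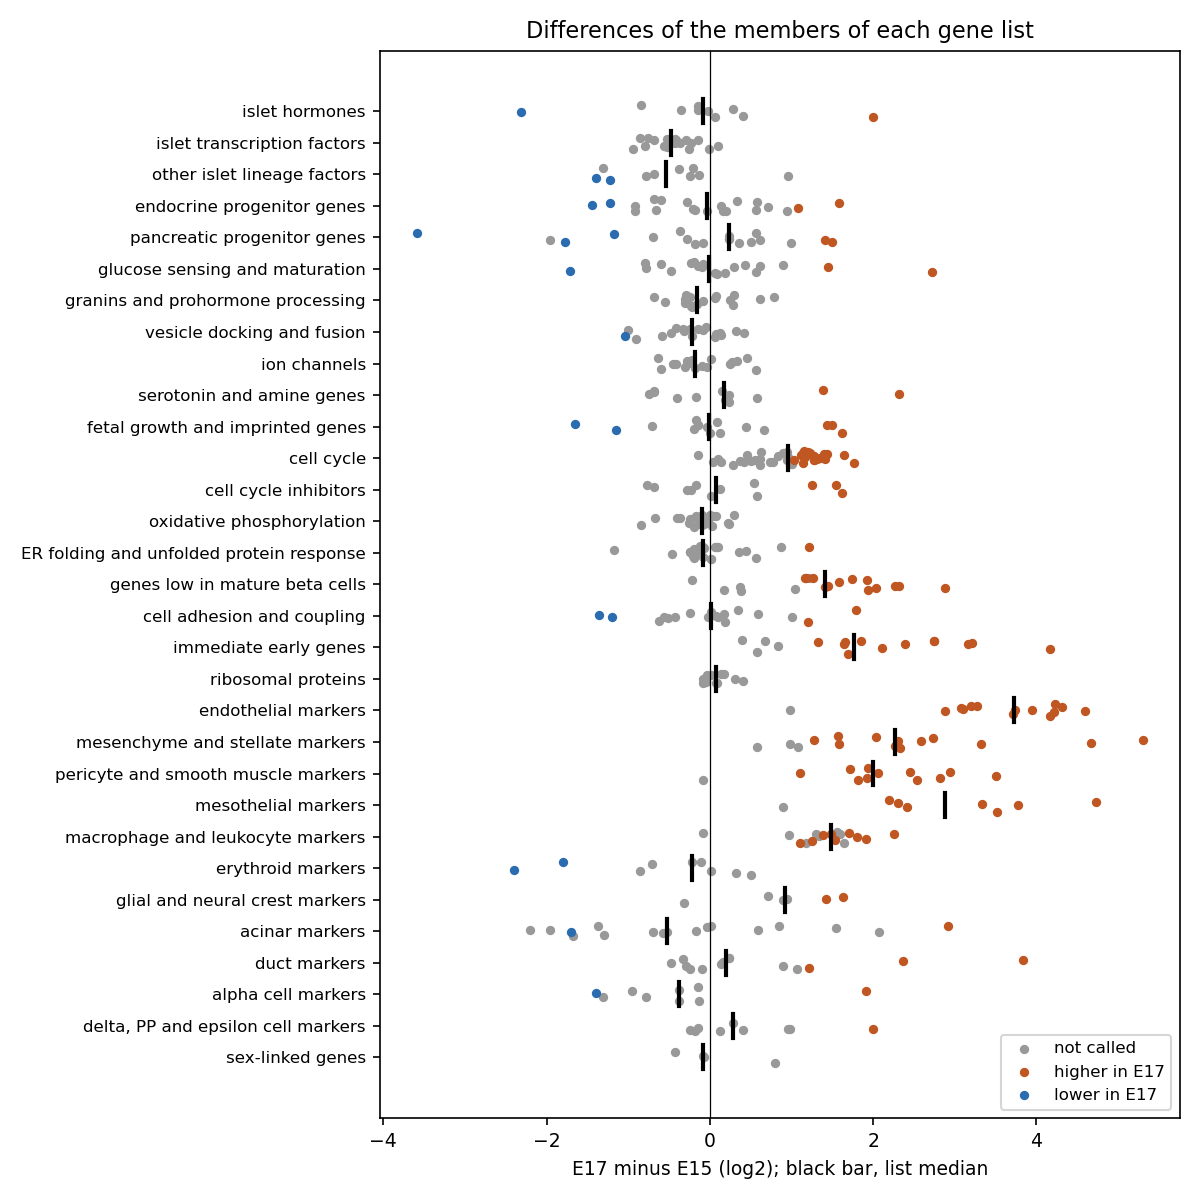
Each point is 1 gene of the list named at the left, placed by E17 minus E15 (x axis, log2) and coloured where called, with a black bar at the median of the list. Points of the secretory, ion channel, oxidative phosphorylation and ribosomal lists cluster around 0, those of the islet transcription factors lie mostly to the left of 0, and those of the non-epithelial, cell cycle and immediate early lists lie to the right.

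Cell contact genes were split. Of 19, 2 were higher and 2 lower, with a median of 0.02 (9.30% and 1.75% of all genes). The tight junction gene Cldn8 rose by 1.79, from 5.08 to 5.83 in E15 to 6.58 to 7.70 in E17, and kept rising in level to 11.46 in adult beta cells. The ephrin Efna5 rose by 1.20, or by 0.93 without E17 replicate 2, short of 2-fold. The claudin Cldn4 was lower by 1.36, with an adjusted p of 0.10 without E17 replicate 1, and the neural adhesion gene Nrcam fell by 1.20 (adjusted p = 0.0033), a call made by 1 of its 4 probe sets.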

How the data were processed

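RNA of sorted cells was extracted with the PicoPure kit, amplified and biotin-labelled with NuGEN kits and hybridised to Affymetrix arrays. The authors deposited log2 RMA values of 45101 probe sets in 48 arrays (R 2.11.1 and RMA per the submitters' processing notes). Intensities before RMA were not used here, and the number of arrays limits the precision. Genes were named from the platform annotation through gene IDs of GRCm38.p6: 34945 probe sets had exactly 1 symbol, 932 several and 9224 none. After the rule in the methods, probe sets above 100 on the linear scale in at least 1 array were kept (32078), which is more than the study states to have kept. One limma 3.58.1 model (R 4.3.3) of 13 population means over all arrays gave E17 minus E15, with Benjamini-Hochberg adjustment over all kept probe sets; the script was tested on simulated data. A gene was read from the probe set with the highest mean over the 48 arrays. List genes with no probe set of their own were not analysed here. Named genes were Ins2 and Pdx1, the 15 largest rises and falls that were called without overlap, the 15 largest such rises with r under 0.5, the members of the hormone, islet factor and maturation lists, and up to 6 called members of each other list; other genes and values were chosen after their values were seen. Members and lists were chosen with earlier results of these data known. Alternatives covered other filters, normalizations, array weights, models, probe choice, thresholds, the replicate block and each array left out. No hybridisation batch was given in the sources used here, so none could enter a fit.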

Additional observations from a re-analysis of the deposited data

Results flagged for a closer look

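In the 4 E15 arrays, 78 named genes and list means were searched for 1 array far from the rest, and chance gives about 1 in 20. The search found 7, each given as the gap to the nearest array over the whole range of the group. E15 replicate 3 was lowest in the means of the ion channels (0.924; 10.01 against 10.13 to 10.14), the serotonin and amine genes (0.873; 8.04 against 8.16 to 8.17) and the alpha cell markers (0.86; 11.21 against 11.31 to 11.33). The same array was lowest in Slc13a4 (0.855; 7.0 against 7.56 to 7.65) and Slc5a9 (0.949; 7.72 against 9.36 to 9.45), and highest in Cckar (0.868; 10.58 against 10.10 to 10.16). E15 replicate 4 was lowest in Ptf1a (0.9; 8.06 against 8.46 to 8.50). The list means differ by about 0.1, and the genes kept their calls without replicate 3 or 4.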

How the results depend on the processing

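Of 119 named genes called, 83 were called under every alternative run on them and 97 under all but the methods' t-test on the 7 arrays; none reversed. Of 46 named genes not called, 3 (Gast, Gipr and Ucn3) were called under at least 1 alternative. The methods' t-test called 1830 probe sets (1381 higher, 449 lower), and an adjusted p under 0.05 with no minimum difference called 7272 (3712 higher, 3560 lower), so the excess of higher calls came with the 2-fold threshold. With at least 3 of the 7 arrays above 100, no erythroid gene was left and that list had no value. Leaving out 1 array each gave 1924 to 2598 higher, 535 to 1097 lower and 2459 to 3695 in all, with the fewest in each case without E17 replicate 1. Centring each array on its median moved the median of all genes by 0.08 and the share of higher calls from 74.5% to 81.3%. Residuals of arrays with the same replicate number correlated at 0.02 to 0.037, so the numbers did not pair the samples; with them as a block 3057 probe sets were called (2240 higher, 817 lower). Of 557 list medians recomputed over 31 lists, 464 moved by less than the SD of the E15 arrays. Levels near the top of the scale (Ins2, Gcg, Iapp) and near the bottom bound what a difference can show.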
